A study of Mus musculus with 18 samples.

Results

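The tubulin isoforms measured here are the 10 mouse genes Tuba1a, Tuba1b, Tuba1c, Tuba4a, Tubb2a, Tubb2b, Tubb3, Tubb4b, Tubb5 and Tubb6. They were taken by gene symbol from a table of 54347 genes, with 4 genes encoding alpha tubulins and 6 encoding beta tubulins. RNA-seq was performed on marrow-derived mesenchymal stem cells (MSC) of male C57BL/6J mice, in 18 libraries that fell into 6 groups of 3. The first experiment held cells left untreated (control), cells given CK666, which inhibits the Arp2/3 complex that branches actin filaments, and cells given cytochalasin D (CytoD), which caps actin filaments. Doses and times of exposure are not in the labels. The second held transfected cells that received a control siRNA (siControl, also labelled mock), an siRNA against Arp4 (siArp4), or the Arp4 siRNA followed by CK666 (siArp4+CK666). Arp4 is a nuclear actin-related protein encoded by Actl6a. According to the methods the cells were 1 primary line pooled from several mice, and each condition was prepared for sequencing in 3 separate preparations. The p-values therefore measure the spread between preparations of that line, not between animals.

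Microtubules are hollow polymers of alpha and beta tubulin dimers, and mammalian cells draw both subunits from small families of closely related genes. The isoforms are co-assembled, and they differ chiefly in their carboxy-terminal tails and in the tissues that express them. Tuba1b, Tuba1c, Tubb5 and Tubb4b are broadly expressed, Tuba1a and Tubb2b are prominent in developing brain, Tubb3 is used as a marker of neurons, and Tubb6 is found in many non-neuronal tissues. Tubulin mRNA level is held in check by autoregulation. When soluble tubulin dimers accumulate, the factor TTC5 recognises the first residues of tubulin chains as they leave the ribosome, and the mRNA being translated is degraded.

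The coding starts of 9 of the 10 genes are shown because these codons specify the residues read in autoregulation and because they show how alike the copies are. Each line gives the first 30 coding bases of 1 transcript of the GENCODE vM21 annotation on GRCm38, 5′ to 3′, and capitals mark the first 4 codons.
Tuba1a: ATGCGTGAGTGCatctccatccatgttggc
Tuba1b: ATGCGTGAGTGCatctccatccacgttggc
Tuba1c: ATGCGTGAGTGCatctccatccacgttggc
Tuba4a: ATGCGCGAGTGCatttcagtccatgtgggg
Tubb2a: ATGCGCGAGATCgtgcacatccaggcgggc
Tubb2b: ATGCGAGAGATCgtgcacattcaggcgggc
Tubb3: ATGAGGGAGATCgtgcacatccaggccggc
Tubb4b: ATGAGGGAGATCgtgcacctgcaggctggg
Tubb5: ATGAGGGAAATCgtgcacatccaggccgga
The 4 alpha genes share the codons for methionine, arginine, glutamate and cysteine, and the 5 beta genes shown share those for methionine, arginine, glutamate and isoleucine, with synonymous differences among them. Over the whole coding sequence Tuba1a and Tuba1b were identical at 98.3% of aligned bases, Tuba1a and Tuba1c at 97.6%, and Tubb2a and Tubb2b at 96.5%.

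This likeness bears on how far a count can be assigned to 1 gene. Only 14.0% of the 31-base windows of Tuba1b were found in no other gene, against 21.4% for Tuba1a, 36.1% for Tuba1c and 29.6% for Tubb4b. Windows of Tubb3, Tubb5 and Tubb6 were 95.5% to 96.7% their own. Reads from the remaining windows were divided by the quantification, so the separate values of Tuba1a, Tuba1b and Tuba1c, and of Tubb2a and Tubb2b, are uncertain and are also given summed where that changed a result. Tuba1a (chromosome 15 from 98949837 to 98953703, minus strand, GRCm38) and Tuba1b (98931425 to 98934565) lie beside each other and overlap the span of Gm49450 on the same strand. Tubb3 (chromosome 8 from 123411424 to 123422015, plus strand) shares bases with Gm20388, whose mean estimated count was 1376 against 14.7 for Tubb3. Tuba4a (chromosome 1 from 75214228 to 75219865, minus strand) overlaps Stk16 on the other strand, with a mean of 1107 and the libraries were unstranded. For Tuba4a, 51.8% of windows were found in another gene, so its values are uncertain on that ground too. For Tubb3 that share was 3.3%, so the overlap touched few of its windows.

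Library totals ran from 18075610 to 24733212 estimated counts, and the 10 genes together took between 0.0725% and 0.900% of them. The knockdown target Actl6a stood at 895.8 ± 208.9 (SD, n = 3) normalized counts in siControl, 41.7 ± 20.1 in siArp4 and 16.8 ± 6.76 in siArp4+CK666, 4.66% and 1.87% of siControl. Of 12 stromal markers, Col1a1, Col1a2, Pdgfra, Pdgfrb, Vcam1 and Cxcl12 had counts of 660 or more in every library, while Thy1 was at 0 in all 18 libraries and Nt5e reached at most 8 counts. Among markers of other cells, Ptprc of haematopoietic cells, Cdh5 of endothelium and Rbfox3, Syt1 and Nefl of neurons were at 0 in at least 17 libraries each. Other members of those lists were present at low counts in all 18, namely Csf1r (13 to 144), Cd68 (18 to 116) and Cd14 (40 to 122) of macrophages and Kdr (2 to 25) of endothelium. The siControl libraries stood apart by their spread. The coefficient of variation (SD over mean) of Tuba1a was 47.4% in siControl against 7.23% in siArp4, and that of Tuba1c was 53.8% against 7.76%. Replicate 1 was the lowest siControl library and replicate 2 the highest for all 4 alpha genes, and for Tubb5. The 12 reference genes, such as Actb and Gapdh, spread too, with summed normalized counts of 287420 to 521951 in siControl and 372507 to 406142 in siArp4. Their sum also ran from 210182 to 302938 in CK666, against 283459 to 296875 in control.

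In untreated MSC the family was dominated by a few members. Levels were set side by side as normalized counts per kilobase of merged exons, since longer transcripts give more reads. Tuba1b led with 32571 per kilobase, followed by Tubb5 with 12504 and Tuba1a with 11703, and the libraries of the latter pair overlapped. Then came Tuba1c (7985), Tubb4b (6992), Tubb6 (4021) and Tubb2a (2280), each apart from its neighbour in all 3 control libraries. Tuba4a (441.8) and Tubb2b (153.8) were far lower. Tubb3, at 9.76, was close to the limit of detection, with 14.5, 12.7 and 29.0 normalized counts in the control libraries.

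CK666 lowered the tubulin family as a whole. In the CK666 libraries the 10 genes took 0.215% ± 0.0169 of all counts (SD, n = 3), against 0.856% ± 0.0427 in control, so that 25.1% of their share was left. By the Wald test of DESeq2 at an adjusted p below 0.01, 9 of the 10 genes were lower and 0 were higher, while 14.4% of all genes tested were lower at that threshold. All 9 were lower by more than 2-fold, a criterion that 5.95% of genes met. The median log2 fold change of the 10 was -1.84, beside 0.0117 over all genes tested. In a bulk sample, fewer cells of a type and less RNA per cell cannot be told apart.

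**Figure D1:**
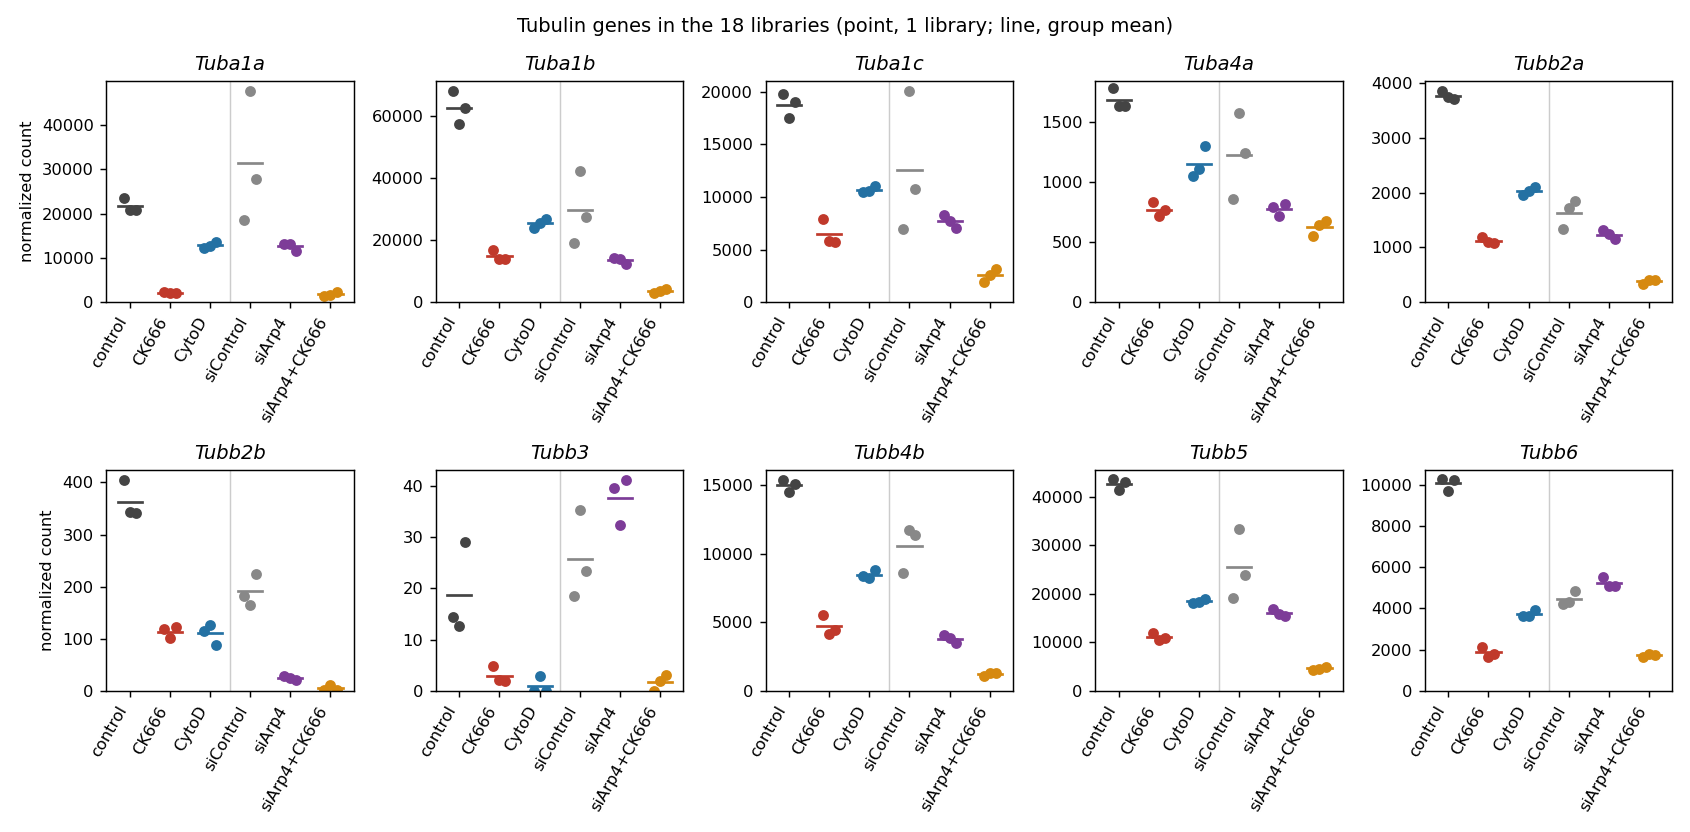
Normalized counts (y axis, linear, from 0) of the 10 tubulin genes in every library, by group (x axis). Each point is 1 library and each line a group mean, and a vertical line separates the experiments, which were normalized apart. The CK666 and CytoD points lie below the control points for each gene, and the siControl points spread widely for Tuba1a, Tuba1b and Tuba1c.

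The deepest fall under CK666 was in Tuba1a. Its normalized counts were 23427, 20773 and 20850 in the control libraries and 2341, 2027 and 2038 in the CK666 libraries. That is a 10.2-fold lower level (log2 fold change -3.34, SE 0.10, adjusted p 8.69e-239), and the groups were far apart. Tuba1b, the most abundant member, stood at 68115, 57591 and 62559 in control and at 16979, 13801 and 14055 in CK666. It was 4.20-fold lower (log2 fold change -2.07, SE 0.12, adjusted p 6.28e-69). Tuba1c, the third of the near-identical alpha genes, fell by less, 2.89-fold (log2 fold change -1.53, SE 0.14). When Tuba1a, Tuba1b and Tuba1c were summed to 1 gene before the fit, the log2 fold change was -2.13, between the separate values of Tuba1a and Tuba1c. Tuba4a fell least of the alpha genes, from 1680 ± 82.8 to 770.1 ± 59.0 (log2 fold change -1.13, SE 0.12).

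Among the beta genes, Tubb6 fell most among those with substantial counts. Its control libraries held 10294, 9677 and 10234 normalized counts and its CK666 libraries 2141, 1661 and 1806, a 5.39-fold lower level (log2 fold change -2.43, SE 0.11, adjusted p 3.94e-103). Tubb5 stood at 43655, 41483 and 43094 in control and at 11931, 10555 and 10979 in CK666, 3.83-fold lower (log2 fold change -1.94, SE 0.08). No library of one group reached the range of the other for either gene. Tubb2a, Tubb2b and Tubb4b fell by 3.19- to 3.35-fold. Tubb3 was the member that was not called. It had 9 counts over the CK666 libraries and 56 over control, a ratio of 15.8% with an exact 95% counting interval of 6.88% to 32.2%, and its log2 fold change of -2.67 had an SE of 0.94 and an adjusted p of 0.0143. That p passed the threshold with a filter on low counts (0.00917), with these groups fitted alone (0.00772) and with all 18 libraries in one fit (0.000853).

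CytoD also lowered the family, by less. The 10 genes took 0.427% ± 0.0124 of counts in CytoD libraries, 49.9% of the control share. All 10 were called lower and 0 higher, where 15.7% of all genes tested were lower. With library totals in place of size factors the share of rises among all genes called in this comparison went from 46.1% to 57.3%, while the same 10 tubulin genes were still called lower. Only 5 tubulin genes passed the 2-fold criterion, which 4.26% of all genes met, namely Tuba1b, Tubb2b, Tubb3, Tubb5 and Tubb6. The median log2 fold change of the 10 was -1.05, against 0.00872 over all genes tested.

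The order of the members under CytoD differed from that under CK666. Tuba1a, which had fallen most with CK666, held 12315, 12692 and 13592 normalized counts in CytoD. That is 1.69-fold below control (log2 fold change -0.75, SE 0.10, adjusted p 6.43e-13). Tuba1b was 2.47-fold lower (log2 fold change -1.30, SE 0.12), with 23924, 25485 and 26953 normalized counts. Tubb6 was 2.70-fold lower (log2 fold change -1.44, SE 0.11) and Tubb5 was 2.31-fold lower (log2 fold change -1.21, SE 0.08). Tubb2b, one of the least abundant members, was the most reduced of those above 10 normalized counts, at 115.8, 126.8 and 88.6 against 404.3, 342.8 and 340.5 in control (log2 fold change -1.71, SE 0.19). Summed with Tubb2a, the change was -0.95. Tuba1c, Tubb2a and Tubb4b were 1.76- to 1.86-fold lower. Tuba4a was the least reduced (log2 fold change -0.54, SE 0.12, adjusted p 2.85e-05). With all 18 libraries in one fit the calls of Tuba1a (adjusted p 0.016), Tuba1c (0.0219) and Tuba4a (0.0161) were lost. Tubb3 had 3 counts over the 3 CytoD libraries and 56 over control, a ratio of 5.51% (exact 95% counting interval 1.10% to 16.9%). Its call (adjusted p 0.00131) was lost without CytoD replicate 1 (0.0108) or replicate 3 (0.0113), and its log2 fold change of -4.22 went to -6.60 without replicate 2.

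Set directly against each other, CK666 left lower tubulin levels than CytoD. In this comparison 8 of the 10 genes were called lower in CK666 and 0 higher, where 15.0% of all genes tested were lower. A single member, Tuba1a, passed the 2-fold criterion, which 6.80% of genes met. Tuba1a was 6.03-fold lower in CK666 than in CytoD (log2 difference -2.59, SE 0.10, adjusted p 6.67e-143). The other 7 called genes differed by -0.58 (Tuba4a) to -0.99 (Tubb6). Summed with Tuba1b and Tuba1c, the difference of Tuba1a shrank to -1.06. The call of Tuba1c was lost with all 18 libraries in one fit (adjusted p 0.0381). Tubb2b stood at 113.5 ± 11.1 in CK666 and at 110.4 ± 19.7 in CytoD, and the 95% interval of the log2 difference ran from -0.36 to 0.44. For Tubb3 the interval was far wider, from -0.89 to 3.99.

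**Figure D2:**
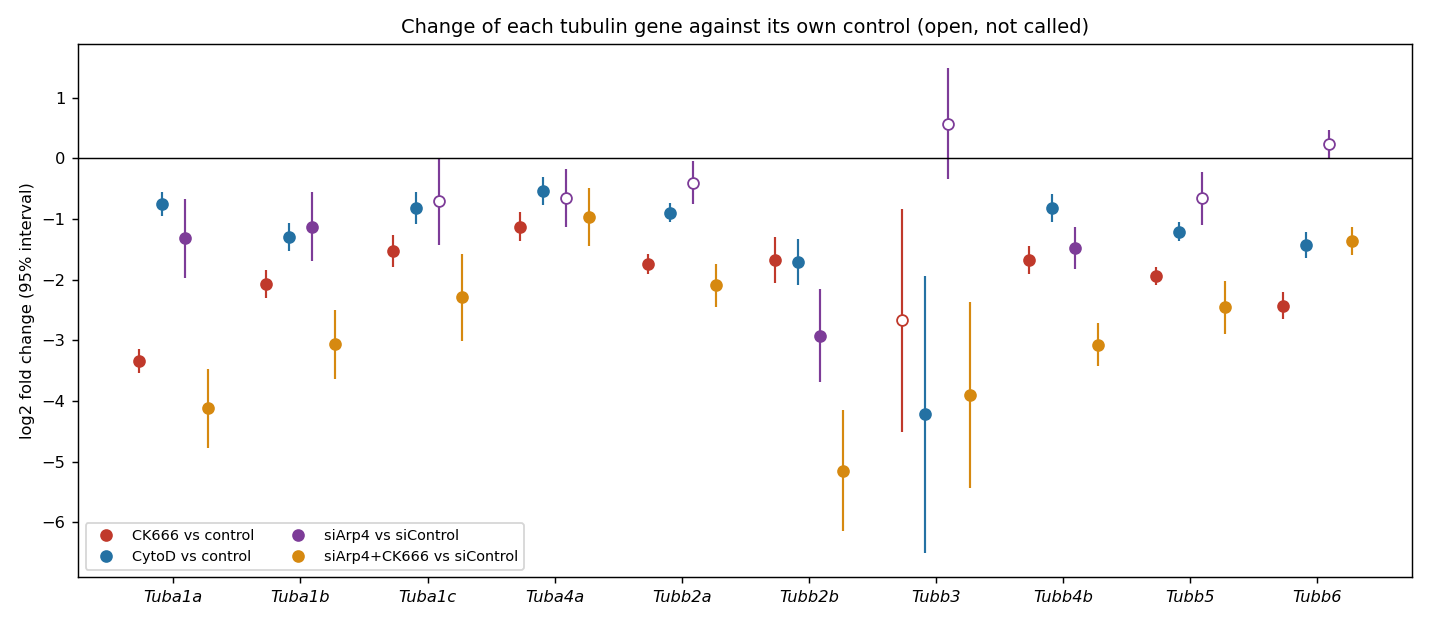
Log2 fold change (y axis) of each tubulin gene (x axis) against its own control for CK666, CytoD, siArp4 and siArp4+CK666. Bars are 95% intervals and open points are changes that were not called. Tuba1a lies at -3.34 for CK666 and -0.75 for CytoD, and Tubb6 lies above 0 for siArp4 at 0.23.

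Arp4 knockdown alone had an uneven effect on the family. In siArp4 the 10 genes took 0.294% ± 0.0148 of counts against 0.537% ± 0.103 in siControl, or 54.7% of the siControl share. Tuba1a, Tuba1b, Tubb2b and Tubb4b were called lower, 4 of 10, and 0 were called higher, where 13.3% of all genes tested were lower. All 4 were lower by more than 2-fold, as were 9.58% of genes. The median log2 fold change of the 10 was -0.69, beside -0.0532 over all genes tested. The siControl spread bears on this count. Without siControl replicate 1 it was 8 genes, with Tuba1c, Tuba4a, Tubb2a and Tubb5 added, and in the quasi-likelihood test of edgeR it was 2, with Tuba1a (adjusted p 0.0124) and Tuba1b (0.0116) lost. Tuba1b also missed the threshold without siArp4 replicate 3 (0.0108).

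Tubb4b and Tubb2b showed the clearest reductions. Tubb4b held 8565, 11739 and 11399 normalized counts in siControl and 4061, 3825 and 3484 in siArp4. It was 2.79-fold lower (log2 fold change -1.48, SE 0.18, adjusted p 8.10e-15). Tubb2b went from 182.7, 164.7 and 225.1 to 29.5, 24.8 and 21.0, a 7.58-fold lower level (log2 fold change -2.92, SE 0.39, adjusted p 2.36e-12). Both genes had every siArp4 library below every siControl library. Summed with Tubb2a, its close copy, the change was -0.53 and was not called (adjusted p 0.0104). Tuba1a held 18556, 47592 and 27785 normalized counts in siControl and 13028, 13170 and 11529 in siArp4 (log2 fold change -1.32, SE 0.33, adjusted p 0.000455). The groups did not overlap, and the nearest libraries of each were siControl replicate 1 and siArp4 replicate 2. Summed with Tuba1b and Tuba1c, the change was -1.12 (adjusted p 0.00225).

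The remaining members were not called. Tubb5 held 19135, 33370 and 23955 normalized counts in siControl and 16860, 15961 and 15499 in siArp4, with an adjusted p of 0.0106, just short of the threshold. Tuba4a (adjusted p 0.0233), Tubb2a (0.0677) and Tuba1c (0.119) had log2 fold changes of -0.65, -0.40 and -0.71. Tubb6 and Tubb3 had values above 0. Tubb6 stood at 4227, 4302 and 4867 in siControl and at 5515, 5100 and 5102 in siArp4, with a log2 fold change of 0.23 whose 95% interval ran from -0.01 to 0.47. Every siArp4 library exceeded every siControl library for Tubb6, but the adjusted p was 0.127. Tubb3 held 18.4, 35.2 and 23.3 normalized counts in siControl and 39.6, 32.4 and 41.1 in siArp4, in overlapping ranges. Its log2 fold change was 0.57 (SE 0.47, adjusted p 0.361).

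When CK666 was added to knockdown cells, the whole family was low. In siArp4+CK666 the 10 genes took 0.0804% ± 0.00767 of counts, 15.0% of the siControl share. All 10 were called lower than in siControl and 0 higher, beside 16.0% of all genes tested, and 9 passed the 2-fold criterion, which 12.5% of genes met. The exception was Tuba4a at 1.96-fold lower (log2 fold change -0.97, SE 0.24). The median log2 fold change of the 10 was -2.76, against -0.0532 over all genes tested. The count of 10 stayed the same when any 1 library was left out.

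Tuba1a fell to 1512, 1655 and 2241 normalized counts, 17.4-fold below siControl (log2 fold change -4.12, SE 0.33, adjusted p 2.81e-33). Tuba1b fell to 2983, 3501 and 4153, which was 8.35-fold lower (log2 fold change -3.06, SE 0.29). Tubb5, at 4356, 4551 and 5026, was 5.49-fold lower (log2 fold change -2.46, SE 0.22). Tubb4b was 8.42-fold lower (log2 fold change -3.07, SE 0.18), Tuba1c 4.90-fold and Tubb2a 4.27-fold. The sum of Tuba1a, Tuba1b and Tuba1c changed by -3.22. Tubb6, at 1652, 1794 and 1760, was 2.57-fold lower (log2 fold change -1.36, SE 0.12). Tubb2b was close to the limit of detection, with 2.11, 11.4 and 2.11 normalized counts. Its log2 fold change of -5.15 (SE 0.51) went to -6.50 without siArp4+CK666 replicate 2, and to -2.24 when it was summed with Tubb2a. Tubb3 had 5 counts over the 3 libraries against 75 in siControl, a ratio of 6.93% (exact 95% counting interval 2.19% to 16.9%). Its log2 fold change of -3.90 was -4.67 without siArp4+CK666 replicate 3.

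Against siArp4, the direct reference for CK666 in knockdown cells, 9 of the 10 genes were called lower and 0 higher, where 5.94% of all genes tested were lower. The same 9 passed the 2-fold criterion, as did 4.04% of genes. Log2 fold changes of the 7 called genes above 300 normalized counts in both groups ran from -1.59 (Tuba1c, Tubb6) to -2.80 (Tuba1a), with Tubb4b at -1.60, Tubb2a at -1.69, Tubb5 at -1.79 and Tuba1b at -1.93. The sum of the 3 close alpha genes changed by -2.10. Tubb3 fell from 39.6, 32.4 and 41.1 normalized counts to 0, 1.91 and 3.16, a log2 fold change of -4.47 (adjusted p 3.27e-07) that was -5.24 without siArp4+CK666 replicate 3. Tubb2b was also called (log2 fold change -2.23, adjusted p 0.000451), and its change was -3.58 without siArp4+CK666 replicate 2. The call was lost with these groups fitted alone (adjusted p 0.0196) and without siArp4 replicate 1 (0.0123), siArp4+CK666 replicate 1 (0.0135) or siArp4+CK666 replicate 3 (0.0112). In edgeR the count was 7, with Tuba1c (0.0239) and Tubb2b (0.0343) lost. Tuba4a was not called, with 622.0 ± 64.1 against 775.1 ± 49.5 and a 95% interval of the log2 fold change from -0.79 to 0.16.

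The difference between the effects of CK666 with and without knockdown was then tested itself, over all 18 libraries. Only Tubb6 was called (1 of 10), where 4.01% of all genes tested were called with a higher value under knockdown. CK666 moved Tubb6 by -2.43 in untransfected cells and by -1.59 in siArp4 cells, a difference of 0.83 on the log2 scale (SE 0.14, adjusted p 1.87e-07). Tubb6 was thus lowered in both settings, and less so in knockdown cells. It was called in each of 19 refits of this contrast, with differences of 0.75 to 0.94 and a highest adjusted p of 0.00249 in edgeR. No member passed with the 2-fold criterion added. For Tuba4a the difference was 0.81 (SE 0.27, adjusted p 0.0231), which passed only when library totals served as size factors (0.000408). That scaling took the share of rises among all genes called in this contrast from 48.0% to 34.1%. The differences of Tuba1b, Tubb2a, Tubb4b and Tubb5 were between 0.05 and 0.14, and their 95% intervals reached from -0.50 to 0.77. Cells given the control siRNA together with CK666 were not analysed here, so transfection and knockdown cannot be told apart in this contrast.

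**Figure D3:**
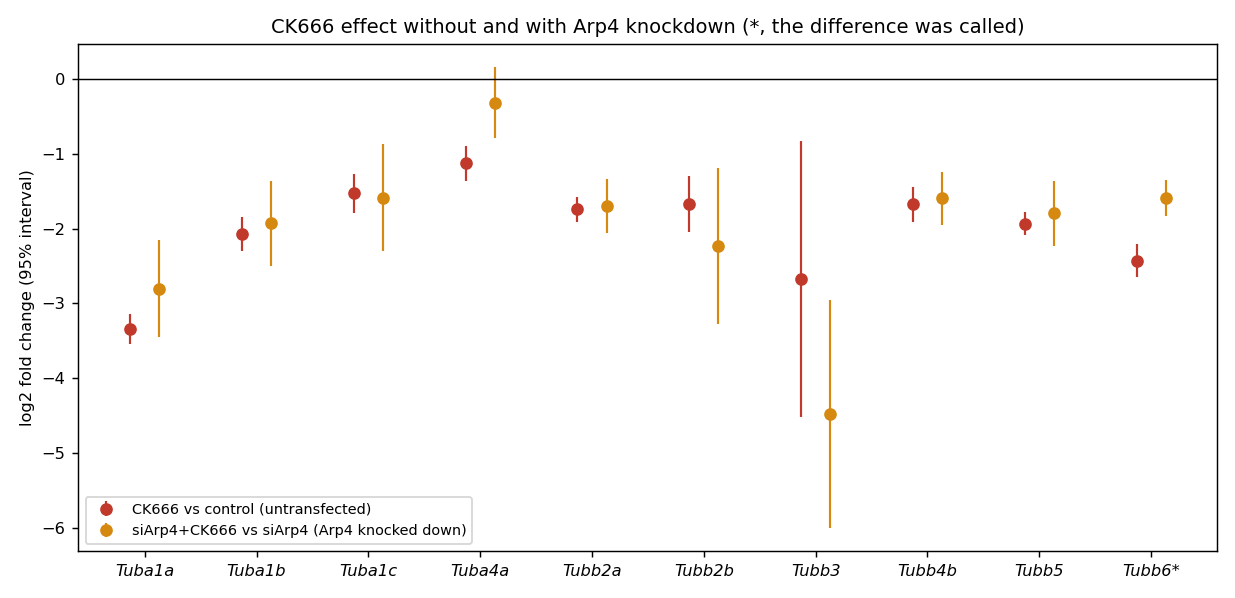
Log2 fold change (y axis) with CK666 of each tubulin gene (x axis), for untransfected cells and for Arp4 knockdown cells, with 95% intervals. The asterisk marks Tubb6, whose effects of -2.43 and -1.59 differed by the test of the difference.

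Because members fell by unequal amounts, the make-up of the tubulin mRNA pool changed with treatment. Shares were taken from counts per kilobase within each class, and are given as a description. In control, Tuba1b made up 61.8% ± 0.658 of alpha tubulin (SD, n = 3), Tuba1a 22.2% ± 0.671 and Tuba1c 15.2% ± 0.336. In CK666 the share of Tuba1a was 9.74% ± 0.436 and that of Tuba1c was 23.2% ± 1.36, and in CytoD the share of Tuba1a was 27.8% ± 0.194. The ranges of Tuba1a in these 3 groups did not touch. The 4 alpha genes kept the same leading member in all of them. In siControl, Tuba1a (44.2% ± 1.11) and Tuba1b (41.2% ± 2.20) were nearly level, and in siArp4 they were at 39.3% ± 0.640 and 40.6% ± 0.172. Adding CK666 to the knockdown brought Tuba1a to 23.9% ± 1.34 and raised Tuba4a to 4.06% ± 0.378 of alpha tubulin, from 1.18% ± 0.145 in siArp4.

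Among beta tubulins the leading share was steady and others moved. Tubb5 provided 44.6% to 50.4% of beta counts per kilobase by group mean in all 6 groups. The share of Tubb6 was 15.5% ± 0.140 in control, 10.7% ± 0.367 in CK666 and 12.3% ± 0.185 in CytoD. It was 12.0% ± 2.24 in siControl, 22.4% ± 0.436 in siArp4 and 24.2% ± 0.958 in siArp4+CK666. Tubb4b went the other way, from 32.5% ± 2.04 in siControl to 18.9% ± 0.587 in siArp4. With Arp4 knocked down, Tubb6 thus exceeded Tubb4b per kilobase, with no overlap of their libraries in either knockdown group. The ratio of alpha to beta counts per kilobase was 2.03 ± 0.1001 in control, 1.71 ± 0.0678 in CK666, 2.06 ± 0.0514 in CytoD, 2.41 ± 0.640 in siControl, 1.85 ± 0.0680 in siArp4 and 1.41 ± 0.173 in siArp4+CK666. The CK666 range of this ratio lay below those of control and CytoD. With the longest transcript as the gene length, 39 of the 60 shares moved by more than 1 SD, and the control share of Tuba1a was then 20.7%.

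**Figure D4:**
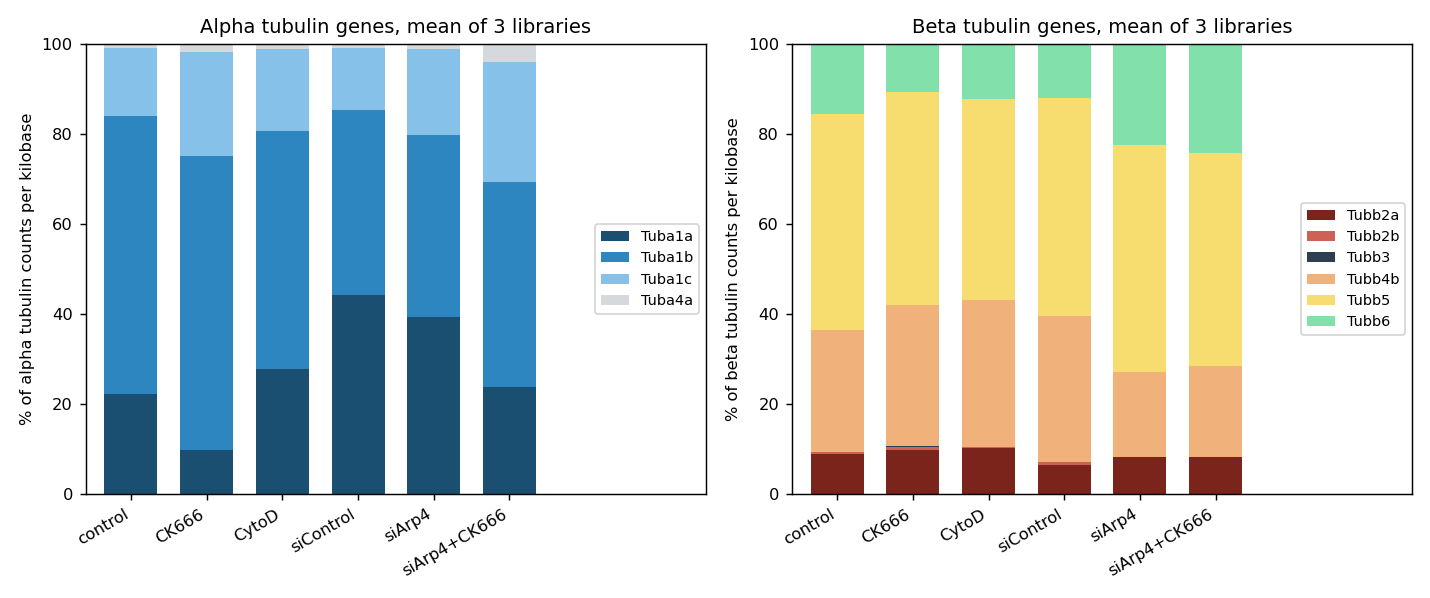
Share (y axis, percent of counts per kilobase) of each alpha tubulin gene (left) and each beta tubulin gene (right) in the 6 groups (x axis), as means of 3 libraries. Tuba1a narrows from 22.2% in control to 9.74% in CK666, and Tubb6 widens from 12.0% in siControl to 22.4% in siArp4.

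The other tubulins of the genome had lower mean counts than most members. Tubg1 (mean 657.4 over the 18 libraries) exceeded Tubb2b (136.7) and Tubb3 (14.7), and Tubd1, Tube1 and Tubg2 exceeded Tubb3. Of 10 further tubulin genes, Tuba3a and Tubb1 had no count in any library, and Tuba3b, Tuba8, Tubal3 and Tubb4a had mean counts of 2.60 or less. The gamma tubulins Tubg1 and Tubg2, which nucleate microtubules, and Tubd1 and Tube1, which are needed for centriole structure, were measurable. Tubg1 was called lower in all 4 comparisons with a control, at 998.8 in control against 615.4 in CK666 (log2 fold change -0.70, adjusted p 3.81e-06) and 626.7 in CytoD (-0.67, adjusted p 9.27e-06). It was at 842.3 in siControl, 493.9 in siArp4 (-0.77, adjusted p 4.35e-05) and 333.7 in siArp4+CK666 (-1.33, adjusted p 1.19e-13). Tubd1 was lower in siArp4 (-1.19, adjusted p 0.00917) and in siArp4+CK666 (-1.40, adjusted p 0.00166), and Tubg2 in siArp4+CK666 (-1.64, adjusted p 0.000539). Tube1 was not called in any of the 4. Ttc5, the gene of the autoregulation factor, was not called in any comparison. Its log2 fold change was 0.45 with CK666 (adjusted p 0.0154), 0.19 with CytoD, -0.10 with siArp4 and -0.09 with siArp4+CK666.

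Genes of the tubulin folding list had medians closer to 0 than the family. The list held 21 genes. It took in the 8 subunits of the chaperonin CCT and the 6 prefoldin subunits that deliver chains to it. The rest were the cofactors that join alpha to beta, with Arl2, and the related gene Tbcel. With CK666, 4 of 21 were higher and 0 lower, beside 15.0% and 14.4% of all genes tested, and their median log2 fold change was 0.17. The 4 were Arl2 (0.92), Tbcel (0.78), Pfdn2 (0.63) and Cct2 (0.34). With CytoD, 0 were higher and 10 lower, beside 13.5% and 15.7% of all genes, with a median of -0.24. All 8 CCT subunits were among the 10, a grouping that was noticed after the values were seen, with log2 fold changes from -0.87 (Cct6a) to -0.43 (Cct4). With siArp4, 2 were higher and 3 lower, beside 12.1% and 13.3% of all genes. With siArp4+CK666, 2 were higher and 2 lower, beside 14.2% and 16.0%. The counts of folding genes that rose were thus near or below the share of all genes in each comparison with a control. Pfdn2 and Cct8 were the genes that rose with both siArp4 and siArp4+CK666, and Vbp1, another prefoldin subunit, fell in both (-0.99 and -1.05). In CK666 against CytoD, 11 of the 21 were higher and 0 lower, with all 8 CCT subunits among the 11. Their median was 0.50, beside -0.023 over all genes tested. Of all genes called in that comparison, 53.2% were higher.

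Microtubule nucleation genes moved down in part. Of 18 genes of the gamma tubulin ring, its anchors and the augmin complex, which branches microtubules in the spindle, 10 were lower with CK666, 10 with CytoD, 4 with siArp4 and 8 with siArp4+CK666, and 0 were higher in any of these. Of all genes tested 14.4%, 15.7%, 13.3% and 16.0% were lower, so the siArp4 count was not far above that share. Examples were Haus5 with CK666 (log2 fold change -1.26), Haus6 with CytoD (-1.30), Haus7 with siArp4 (-1.42) and Haus5 with siArp4+CK666 (-1.68). The medians were -0.38, -0.59, -0.49 and -0.57, all closer to 0 than those of the tubulin isoforms. Of 20 tubulin modifying enzymes, 19 were in the table and 16 or 17 were tested. With CK666, 2 were higher and 3 lower, with CytoD 3 and 2, with siArp4 3 and 3, and with siArp4+CK666 4 and 5. Of all genes tested, 15.0% were higher and 14.4% lower with CK666, and 13.5% and 15.7% with CytoD. The shares were 12.1% and 13.3% with siArp4 and 14.2% and 16.0% with siArp4+CK666. The CK666, CytoD and siArp4 counts were near these shares, and the siArp4+CK666 counts were above them. Ttl, which restores the terminal tyrosine of alpha tubulin, was lower with CK666 (-0.62), siArp4 (-1.05) and siArp4+CK666 (-1.23). Agbl3, a deglutamylase, rose with CytoD (0.97), siArp4 (1.97) and siArp4+CK666 (2.04).

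Among 34 microtubule-associated and severing proteins, 28 to 30 were tested. With CK666, 2 were higher and 5 lower, with CytoD 2 and 10, with siArp4 3 and 6, and with siArp4+CK666 2 and 6. The shares of all genes were 15.0% higher and 14.4% lower with CK666, 13.5% and 15.7% with CytoD, 12.1% and 13.3% with siArp4, and 14.2% and 16.0% with siArp4+CK666. The numbers that fell with CK666, siArp4 and siArp4+CK666 were near these shares, and those that rose were below them. Kif2c, a depolymerising kinesin of mitosis, fell in all 4, with log2 fold changes of -1.13, -0.95, -1.74 and -4.12. Stmn1, which sequesters tubulin dimers, fell with siArp4 (-1.94, adjusted p 6.70e-05) and with siArp4+CK666 (-2.32, adjusted p 9.33e-07). Of 12 reference genes, 1 was higher and 3 lower with CK666, 3 and 4 with CytoD, and 2 and 2 in each of the siArp4 comparisons, to be read against the same shares of all genes. Their medians lay between -0.09 and 0.12.

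Proliferation genes moved with the tubulins, and their part in the tubulin changes was not tested. Of 16 genes, which included Mki67, Ccna2, Plk1 and Mcm5, 15 were lower with CK666, 15 with CytoD, 15 with siArp4 and 16 with siArp4+CK666, and 0 were higher, where 14.4%, 15.7%, 13.3% and 16.0% of all genes were lower. Their medians were -1.14, -1.11, -1.34 and -3.50, and the range of their summed normalized counts was 69635 to 71362 in control, 30256 to 32278 in CK666, 33199 to 33819 in CytoD, 26784 to 28182 in siControl, 11059 to 11823 in siArp4 and 4782 to 5041 in siArp4+CK666. The summed tubulins ran from 79067 to 162841 in the same siControl libraries. The groups with the lowest proliferation sum within each experiment were CK666 and siArp4+CK666, which also had the lowest tubulin share. The tubulin median was below the proliferation median with CK666 (-1.84), and above it with CytoD (-1.05), siArp4 (-0.69) and siArp4+CK666 (-2.76).

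Cell type markers also moved. The 4 adipocyte markers rose with CK666 and with CytoD (4 of 4 in each, beside 15.0% and 13.5% of all genes), and 3 of 4 fell with siArp4, beside 13.3%. With siArp4+CK666, 0 of the 4 were called, where 14.2% of all genes were higher and 16.0% lower. Of 10 stromal markers tested, 7 were lower and 0 higher with CK666, and 1 was lower and 3 higher with CytoD, where 14.4% and 15.0% of all genes were lower and higher with CK666 and 15.7% and 13.5% with CytoD. With siArp4, 2 were lower and 2 higher, beside 13.3% and 12.1% of all genes. With siArp4+CK666, 5 were lower and 0 higher, beside 16.0% and 14.2%. Of the smooth muscle and pericyte markers tested, 1 of 3 was lower with CK666 (list median -0.13), 2 of 3 with CytoD, 0 of 2 with siArp4 and 2 of 2 with siArp4+CK666. Of all genes tested, 14.4%, 15.7%, 13.3% and 16.0% were lower in these comparisons. Acta2, a contractile actin of smooth muscle, fell with CK666 (-0.88), CytoD (-1.41) and siArp4+CK666 (-1.64). The summed haematopoietic markers ran from 122.4 to 358.4 normalized counts over all groups, and the 6 neuronal markers summed to at most 2.95, so that neuronal RNA was near 0 in every group. The bearing of these shifts on the tubulins was not tested.

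**Figure D5:**
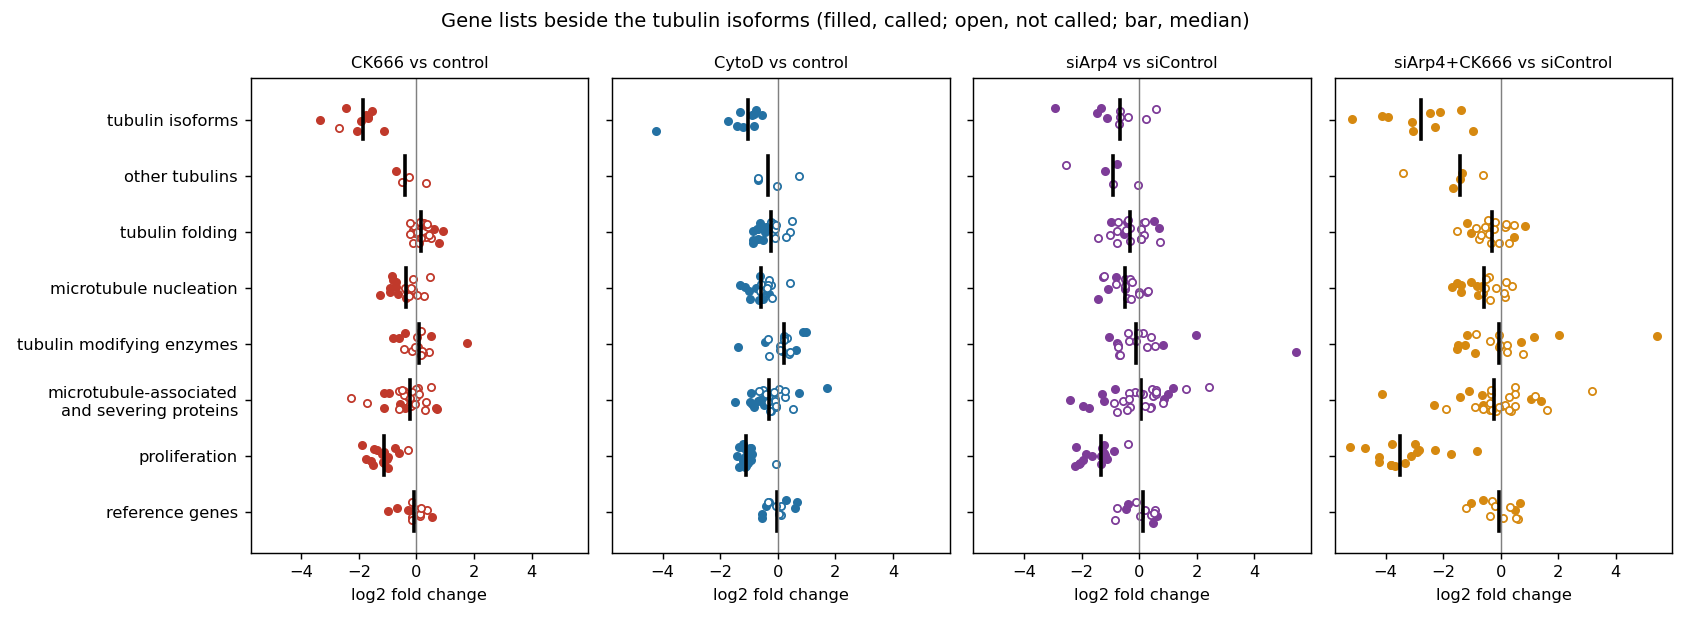
Log2 fold change (x axis) of every tested gene of the tubulin isoforms and 7 other lists (y axis) in the 4 comparisons with a control. Filled points are called, open points are not, and black bars are list medians. The tubulin and proliferation medians are the lowest with CK666 (-1.84 and -1.14) and with siArp4+CK666 (-2.76 and -3.50), and the folding list lies close to 0.

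The genes whose pattern was most like that of Tuba1b and of Tubb5 were sought by Euclidean distance over the 4 log2 fold changes against the own control, among 9858 other genes that averaged 100 or more normalized counts in each experiment. For Tuba1b they were Ercc6l (distance 0.41), Fbxo5 (0.41) and Shcbp1 (0.44). Ercc6l, for example, had log2 fold changes of -1.80 with CK666, -1.26 with CytoD, -1.24 with siArp4 and -2.78 with siArp4+CK666. For Tubb5 they were Mcm5 (0.49), Tcf19 (0.50) and Prc1 (0.54). Other members came next for Tubb5, with Tubb2a at rank 4 and Tuba1c at rank 6, whereas Tubb6 was at rank 156 and Tuba1a at rank 706. For Tuba1b the nearest members were Tubb4b at rank 16 and Tubb5 at rank 19, and Tuba1a was at rank 151. The distances are a description over 4 comparisons in which pairs share control libraries.

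Promoter sequences from RefSeq on GRCm38.p6 matched 8 of the 10 genes and are given because members fell together in several comparisons. The CCAAT box (CCAAT on either strand), which binds the factor NF-Y, was found within 250 bases upstream of 5 of the 8 (Tuba1a, Tuba1c, Tubb3, Tubb4b and Tubb5), against 33.8% of 32851 promoters. The GC box (GGGCGG on either strand), bound by Sp1, was in 6 of 8 against 32.7%. TATAAA was in 1 of 8 against 12.4%, and TTTGAA, the cell cycle homology region, in 1 of 8 against 16.0%. The CArG box of serum response factor was in 0 of 8 against 1.5%. The 120 bases before the first annotated exon of Tubb4b (chr2:25224703-25224822, minus strand) and Tubb5 (chr17:35838307-35838426, minus strand) are shown with CCAAT in capitals, as the members with the clearest siArp4 change and the highest beta level.
Tubb4b: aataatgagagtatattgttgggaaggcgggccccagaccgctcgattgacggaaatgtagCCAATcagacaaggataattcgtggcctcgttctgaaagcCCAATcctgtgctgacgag
Tubb5: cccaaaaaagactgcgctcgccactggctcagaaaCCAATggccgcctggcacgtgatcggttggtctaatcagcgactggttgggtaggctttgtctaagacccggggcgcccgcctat
Motifs were searched separately, so matches of different motifs may overlap. A match describes letters and not a bound site.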

How the data were processed

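RNA of 18 MSC samples was sequenced as unstranded read pairs. The authors quantified transcripts with Salmon 1.2.1, per the labels and methods, against GENCODE vM25 on GRCm38, and the deposited values are expected counts per gene, not scaled between libraries. How transcripts were added up to genes is not given in the sources used here. Expected counts were rounded to whole numbers, which changed a library total by at most 0.00137%. Totals of 18075610 to 24733212 set the precision, and counting intervals cover counting error only. Symbols came from GENCODE vM21, also on GRCm38, where 54094 identifiers matched and 253 did not.

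The test was the two-sided Wald test of DESeq2 1.42.0 (R 4.3.3) with Benjamini-Hochberg adjustment over all genes and independent filtering at 0.01. Each experiment was fitted on its own (9 libraries, group as the only term), and the difference between CK666 effects over all 18. A gene was called at an adjusted p below 0.01, and the count with an absolute log2 fold change over 1 is given beside it. Normalized counts were divided by the size factors of their own experiment, except in levels and shares per kilobase, which used size factors of all 18 libraries. Alternatives were edgeR 4.0.16, other scalings, filters, sets of fitted libraries, summed close copies, a replicate block and each library left out. The code was tested on simulated data.

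The members and lists were chosen with earlier results of these data known. Beside the members, genes are named by rule, which takes other tubulins with a mean of at least 10 normalized counts, at most 4 called genes per list and comparison with a mean of at least 100, Ttc5, Actl6a and the 3 nearest patterns of Tuba1b and Tubb5.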

Additional observations from a re-analysis of the deposited data

Results flagged for a closer look

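Tubb6 was the member for which the effect of CK666 differed between knockdown and untransfected cells by the test of the difference itself (DESeq2, 0.83 on the log2 scale, adjusted p 1.87e-07). The 3 CK666 libraries stood at 18.6% of control, and siArp4+CK666 libraries were at 1735 ± 74.4 normalized counts against 5239 ± 239.3 in siArp4. Every CK666-treated library lay below every library of its reference group in both settings.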

How the results depend on the processing

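Over the 6 pairwise comparisons 50 changes of members were called, and in 898 refits under other settings all kept their direction and 882 kept their call. For CytoD vs control the count of 10 was 5 with the 2-fold criterion, and 9 to 10 when 1 library was left out. For CK666 vs CytoD it went from 8 to 1 with that criterion. For siArp4 vs siControl it went from 4 to 2 in edgeR, 2 with close copies summed, which leaves fewer genes, 7 with all 18 libraries in one fit, and 3 to 8 when 1 library was left out. For the difference between CK666 effects it was 0 with the 2-fold criterion and 2 with library totals as size factors. All 18 libraries in one fit added Tuba4a, Tubb2a and Tubb5 to siArp4 vs siControl, and library totals added Tuba4a and Tubb5. The filter on low counts added Tubb5 there (DESeq2, adjusted p 0.00691). Leaving out 1 library gave 8 to 9 for siArp4+CK666 vs siArp4 and moved none of the other counts.

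Reversals concerned log2 changes that were not called. Tubb2b in CK666 vs CytoD (0.04) was -0.009 with library totals, -0.787 summed with Tubb2a, and -0.095 to 0.154 when 1 library was left out. In the difference between CK666 effects, Tuba1c was 0.035 when summed with Tuba1a and Tuba1b, and Tubb2b was 0.032 when summed with Tubb2a. Leaving out 1 library gave -0.009 to 0.253 for Tuba1b, -0.235 to 0.116 for Tuba1c, -0.014 to 0.136 for Tubb2a and -0.008 to 0.207 for Tubb4b. A summed value is that of several genes, and the cause of the other moves was not tested.

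Replicate numbers showed no consistent pairing of the samples. Of 18 same-number correlations 5 exceeded 0.1, and 5 of 18 libraries correlated best with their own number. The correlations ran from -0.608 to 0.786, and with 3 libraries per group they cannot exclude pairing. With the replicate block the counts were 9, 10, 8, 4, 10 and 9 in the 6 comparisons and 1 for the difference, the same as without it. Tubb3 received no adjusted p in CytoD vs control without control replicate 2 or 3, in CK666 vs control without control replicate 1, or in CK666 vs CytoD with these groups alone. Its counts of 0 to 47 per library limit what can be said of it.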
